A study of Homo sapiens with 6 samples.

Results

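The neutrophil-attracting CXC chemokines CXCL8, CXCL1, CXCL2, CXCL3, CXCL5 and CXCL6 were taken by gene symbol from the deposited expression table, 6 of its 50868 genes with values. RNA came from UM-UC-3 and 5637, both established human bladder cancer cell lines. Each line had been infected with lentivirus carrying a control hairpin (sh-NC) or 1 of 2 hairpins against the long noncoding RNA LNMAT1 (sh-LNMAT1#1 or sh-LNMAT1#2) and kept under puromycin until stable lines were obtained. All 6 libraries therefore come from infected, puromycin-selected cells. Each construct gave 1 library per line, so within a line there is no replicate and no test. The lines were grown in different media, which cannot be told apart from the lines themselves, and the labels do not say whether the stable cells were pools or clones. Values are FPKM, fragments scaled to transcript length and library depth, so that levels of different genes can be set side by side per length.

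These small secreted proteins carry an ELR motif before their first cysteines and act on the receptor CXCR2 of neutrophils, with CXCL8 and CXCL6 also acting on CXCR1. They draw neutrophils out of the blood into a tissue, and epithelial cells of the bladder release them in infection. Their genes form a cluster on the long arm of chromosome 4 and are classically switched on through NF-κB after IL-1 or TNF, while their mRNAs are short-lived.

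Depth lay between 19374000 and 24708000 fragments per library. The library labelled 5637 sh-NC stood apart from its line. Over 12717 genes its root-mean-square log2 difference was 0.30 from UM-UC-3 sh-LNMAT1#1 and 1.48 from each 5637 sh-LNMAT1 library, whereas the last 2 differed by 0.37 from each other. UM-UC-3 sh-LNMAT1#1 was likewise nearer to that library than to its own line. It lay 0.67 from UM-UC-3 sh-NC and 0.63 from UM-UC-3 sh-LNMAT1#2, which differed by 0.43 from each other. Epithelial markers summed to 467 and 658 FPKM in the 5637 sh-LNMAT1 libraries, to 22.7 FPKM under the label 5637 sh-NC, and to between 17.8 and 27.1 FPKM in UM-UC-3. EPCAM, which marks epithelial cells, was 33.8 and 35.6 FPKM with the hairpins in 5637 against 0.0104 FPKM under the label 5637 sh-NC. The label was kept. The hairpin changes in 5637 and the test of whether these changes differ between the lines use that library and have no counterpart without it. The pooled fit and the comparison of the lines are given with and without it. LINC01296, the symbol under which LNMAT1 is listed and a gene with similar copies whose reads may not be separable, was 14.2, 6.20 and 6.70 FPKM in UM-UC-3 with sh-NC, sh-LNMAT1#1 then sh-LNMAT1#2, and 11.7, 4.70 and 2.14 FPKM in the libraries of the same constructs labelled 5637.

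The 6 genes lie within 358.8 kb of chromosome 4 (GRCh38, chr4:73740506-74099293) together with 3 other protein-coding genes, PF4V1, PF4 and PPBP, which encode platelet chemokines. CXCL8, CXCL6 and CXCL1 are on the plus strand, and CXCL5, CXCL3 and CXCL2 on the minus strand. To show what the genes share at their starts, 60 bases of each promoter are printed 5′ to 3′ on the gene's own strand, from 110 to 51 bases before the RefSeq start (GRCh38.p14). Capitals mark GGAATTTCC, a word of the type bound by NF-κB. The windows are chr4:73740459-73740518 for CXCL8, chr4:73869283-73869342 for CXCL1, chr4:74099246-74099305 for CXCL2, chr4:74038740-74038799 for CXCL3, chr4:73998728-73998787 for CXCL5 and chr4:73836568-73836627 for CXCL6.
CXCL8: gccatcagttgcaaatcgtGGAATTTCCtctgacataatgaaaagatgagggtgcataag
CXCL1: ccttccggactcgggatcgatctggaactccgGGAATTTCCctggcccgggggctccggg
CXCL2: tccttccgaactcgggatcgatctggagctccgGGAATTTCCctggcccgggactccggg
CXCL3: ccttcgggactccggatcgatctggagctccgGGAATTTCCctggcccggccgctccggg
CXCL5: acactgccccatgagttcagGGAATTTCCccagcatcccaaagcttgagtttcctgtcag
CXCL6: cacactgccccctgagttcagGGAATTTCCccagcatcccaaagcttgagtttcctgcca
Annotated starts differ between sources, and by the deposited positions 13 bases of the CXCL8 window, 0 of CXCL1, 48 of CXCL2, 52 of CXCL5 and all 60 of CXCL3 and CXCL6 fall inside the gene.

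All 6 promoters, read on both strands from 250 bases before to 50 after the start, held GGAATTTCC, against 162 of 35116 RefSeq promoters (0.461%). The word began between 91 and 77 bases before the start. The same word with a further G directly before it was in 5 of the 6, all but CXCL8, and in 51 of 35116 promoters (0.145%). CXCL8 alone of the 6 held TGACTCA, a word bound by AP-1 factors, beginning 137 bases before the start and found in 4.95% of promoters. CXCL8 alone also held TATAAA (11.5% of promoters), while CXCL1, CXCL2 and CXCL3 had CATAAA (10.6%) and CXCL5 and CXCL6 had GATAAA (9.20%) close to that position. Over 250 bases before the start, CXCL5 and CXCL6 were 85.3% identical, CXCL1 and CXCL3 81.4%, CXCL2 and CXCL3 73.4%, and CXCL8 no more than 48.1% identical to any other member. These matches describe letters only, and binding was not measured.

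CXCL5 and CXCL6 had the most similar promoters and, as given below, stood in opposite directions in the 5637 sh-LNMAT1 libraries. For that reason 200 bases before each start are shown, chr4:73998678-73998877 on the minus strand for CXCL5 and chr4:73836478-73836677 on the plus strand for CXCL6, again with GGAATTTCC in capitals. Of these, 102 and 181 bases lie inside the gene as the deposited table places it.
CXCL5: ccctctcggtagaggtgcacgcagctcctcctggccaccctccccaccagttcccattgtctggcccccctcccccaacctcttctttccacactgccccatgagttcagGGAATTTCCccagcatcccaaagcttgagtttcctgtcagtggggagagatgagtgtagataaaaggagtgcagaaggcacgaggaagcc
CXCL6: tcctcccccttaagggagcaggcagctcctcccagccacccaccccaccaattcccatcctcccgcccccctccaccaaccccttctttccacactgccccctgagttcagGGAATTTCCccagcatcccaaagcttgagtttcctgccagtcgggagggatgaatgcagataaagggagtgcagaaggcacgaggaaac

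CXCL8 (ENSG00000169429, chr4:73740506-73743716), also known as interleukin-8, is the best-known neutrophil attractant of the family. UM-UC-3 held 179.8 FPKM under sh-NC, 40.7 under sh-LNMAT1#1 and 158 under sh-LNMAT1#2. The libraries labelled 5637 held 48.0 FPKM under sh-NC, 90.3 under sh-LNMAT1#1 and 125 under sh-LNMAT1#2. The low libraries were UM-UC-3 sh-LNMAT1#1 and the library labelled 5637 sh-NC, and the remaining 4 were at least 90.3 FPKM. Among the 50868 genes, CXCL8 ranked between 113 and 707 by level.

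CXCL1 (ENSG00000163739, chr4:73869393-73871242), CXCL2 (ENSG00000081041, chr4:74097035-74099293) and CXCL3 (ENSG00000163734, chr4:74036589-74038807) encode the closely related GRO chemokines. CXCL1 was 73.9, 54.8 and 119 FPKM in UM-UC-3 with sh-NC, sh-LNMAT1#1 then sh-LNMAT1#2, and 75.8, 80.3 and 122 FPKM in the libraries labelled 5637 in the same order. CXCL2 was 27.1, 18.0 and 66.8 FPKM in UM-UC-3, and 19.9, 26.4 and 31.8 FPKM in 5637. The levels of both genes in the lines overlapped, and in each line the highest library was sh-LNMAT1#2. CXCL3 was 21.2, 10.4 and 24.4 FPKM in UM-UC-3, and 14.0, 5.72 and 5.49 FPKM in 5637. Here the 5637 sh-LNMAT1 libraries lay below all 4 others. Of the 50-base words of CXCL2 transcripts, 12.5% also occur in CXCL3 or CXCL1, against 6.0% for CXCL3 and 4.8% for CXCL1, so reads of these genes could in part have been split between them.

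CXCL5 (ENSG00000163735, chr4:73995642-73998779) encodes an attractant typical of epithelial cells, once named epithelial-derived neutrophil activator. It was 58.2 and 81.9 FPKM in 5637 with sh-LNMAT1#1 and sh-LNMAT1#2, from 3074 and 4029 fragments. It was listed at 0 in the library labelled 5637 sh-NC and in UM-UC-3 sh-LNMAT1#1, and at 0.0319 and 0.0515 FPKM in the remaining UM-UC-3 libraries, from 2 fragments under sh-NC and 3 under sh-LNMAT1#2. The gene was thus either among the 397 highest or at most 3 fragments, with nothing in between. A count of 0 allows up to 3 fragments, so CXCL5 in 5637 was at least 1105-fold higher with sh-LNMAT1#1 and at least 1555-fold higher with sh-LNMAT1#2 than in the library labelled 5637 sh-NC, with the floor taken per library. Against UM-UC-3 sh-NC the ratio with sh-LNMAT1#1 in 5637 was 1826 (exact 95% interval 505 to 15080). Floors and intervals cover counting error only.

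CXCL6 (ENSG00000124875, chr4:73836497-73849064), the nearest relative of CXCL5, was low throughout. It was 2.53, 3.55 and 2.60 FPKM in UM-UC-3 with sh-NC, sh-LNMAT1#1 then sh-LNMAT1#2, and 2.89, 0.878 and 1.94 FPKM in the libraries labelled 5637. The 5637 sh-LNMAT1 libraries lay below all others, in the opposite direction to CXCL5. The lowest value rests on between 9.88 and 39.9 fragments, bounded by the shortest transcript length and the merged length of all exons.

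**Figure D1:**
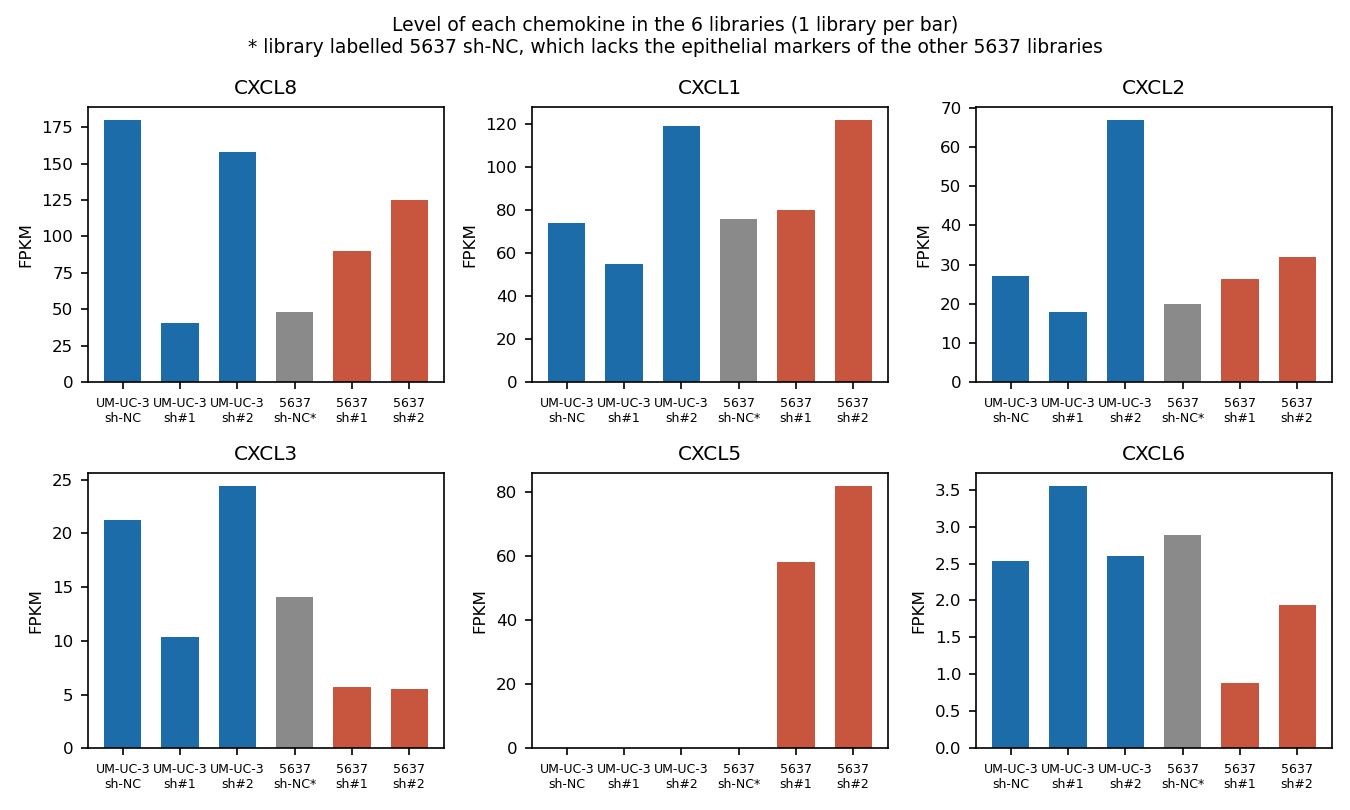
FPKM (y axis, linear, from 0, each panel on its own scale) of the 6 chemokines in the 6 libraries (x axis), 1 bar per library, with sh#1 and sh#2 for the hairpins against LNMAT1, blue for UM-UC-3, grey for the library labelled 5637 sh-NC and red for the 5637 sh-LNMAT1 libraries. CXCL5 has visible bars only in the last 2 libraries, at 58.2 and 81.9 FPKM, and CXCL3 has its lowest bars there, at 5.72 and 5.49 FPKM.

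Summed over the 6 genes, the libraries held 305, 127 and 371 FPKM in UM-UC-3 with sh-NC, sh-LNMAT1#1 then sh-LNMAT1#2, and 161, 262 and 368 FPKM in the libraries labelled 5637. In bulk RNA, fewer expressing cells and less RNA per cell cannot be told apart. CXCL8 and CXCL1 together led every library. CXCL8 was the higher of that pair in 4 libraries, and CXCL1 in the remaining 2, UM-UC-3 sh-LNMAT1#1 and the one labelled 5637 sh-NC. CXCL8 made 59.0% of the sum in UM-UC-3 sh-NC, 31.9% with sh-LNMAT1#1 and 42.5% with sh-LNMAT1#2. CXCL5 held rank 3 in both 5637 sh-LNMAT1 libraries, with 22.2% of the sum in each, and last in the other 4.

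**Figure D2:**
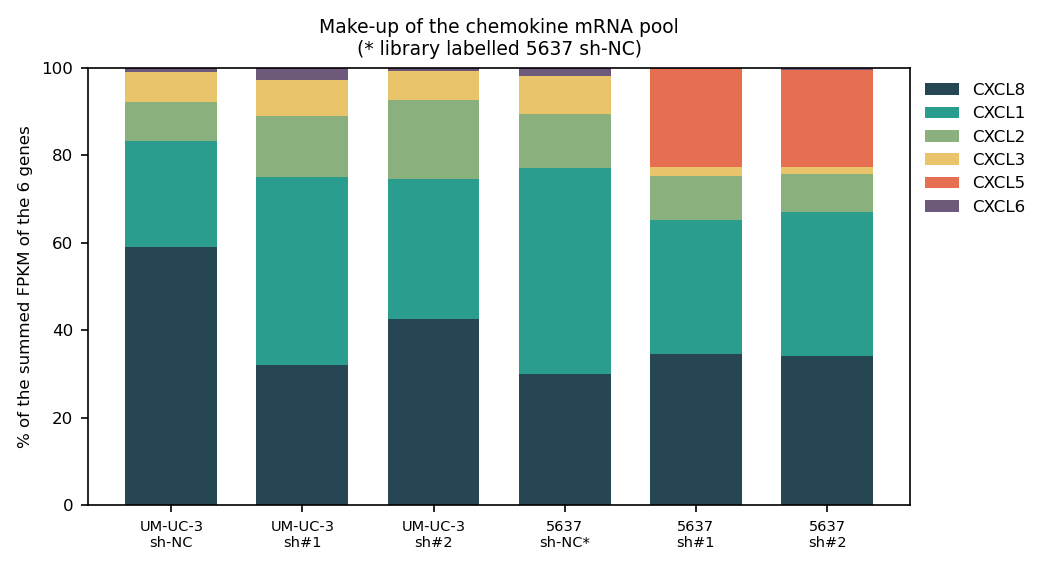
Share of each chemokine in the summed FPKM of the 6 genes (y axis, percent, stacked bars from 0 to 100) in each of the 6 libraries (x axis). The CXCL5 segment is 22.2% in each 5637 sh-LNMAT1 library and at most 0.0139% in the others, and the CXCL8 segment runs from 29.9% in the library labelled 5637 sh-NC to 59.0% in UM-UC-3 sh-NC.

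The study compared each hairpin with sh-NC of the same line to ask what LNMAT1 changes. In UM-UC-3 the hairpins did not move the chemokines alike. With sh-LNMAT1#1 CXCL8 differed from sh-NC by -2.13 on the scale of log2(FPKM + 0.5), a scale that understates changes of low genes, and with sh-LNMAT1#2 by -0.19. CXCL8 was the 1 member of 5 kept (mean of at least 1 FPKM) that was at least 2-fold lower with sh-LNMAT1#1, as were 5.31% of all 12025 genes kept. CXCL3 fell just short of that limit with sh-LNMAT1#1, at a plain ratio of 0.489 that the pseudocount brings under 2-fold, and stood at 0.20 with sh-LNMAT1#2. CXCL2 stood at -0.58 and 1.29, the second of these the 1 member at least 2-fold higher with sh-LNMAT1#2, against 2.10% of all genes. CXCL1 stood at -0.43 and 0.69, and CXCL6 at 0.42 and 0.03. No member was 2-fold higher or lower with both hairpins, against 1.08% and 0.358% of all genes, and CXCL5 was too low to be kept.

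Set directly against each other, the 2 UM-UC-3 hairpin libraries differed at least 2-fold in 8.79% of genes and in 4 of the 5 members kept. CXCL8 was higher with sh-LNMAT1#2 by 1.94, CXCL2 by 1.86, CXCL3 by 1.19 and CXCL1 by 1.11 on the log2 scale, while CXCL6 differed by -0.39. LINC01296 was 6.20 and 6.70 FPKM in those libraries. With 1 library each, a hairpin and its library cannot be told apart.

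In 5637 as labelled, CXCL5 was the 1 member of 6 at least 2-fold higher with both hairpins, at 6.88 and 7.37, where 18.5% of 12791 genes were. CXCL3 was the 1 member at least 2-fold lower with both, at -1.22 and -1.28, where 12.3% of genes were. CXCL8 stood at 0.90 and 1.37 and CXCL6 at -1.30 and -0.47, so CXCL8 was past 2-fold higher with sh-LNMAT1#2, as were 20.2% of genes, and CXCL6 past 2-fold lower with sh-LNMAT1#1, as were 15.3%. CXCL2 stood at 0.40 and 0.66. CXCL1 stood at 0.08 and 0.68, and scaling to the 75th percentile, which moves the changes in 5637 by -0.18, turns the first of these below 0. Every one of these changes uses the library labelled 5637 sh-NC. That library's chemokine levels were nearest to those of UM-UC-3 sh-LNMAT1#1, with a median absolute log2 difference of 0.25 and at most 0.46 over the 6 genes, and lay up to 7.37 from 5637 sh-LNMAT1#2.

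**Figure D3:**
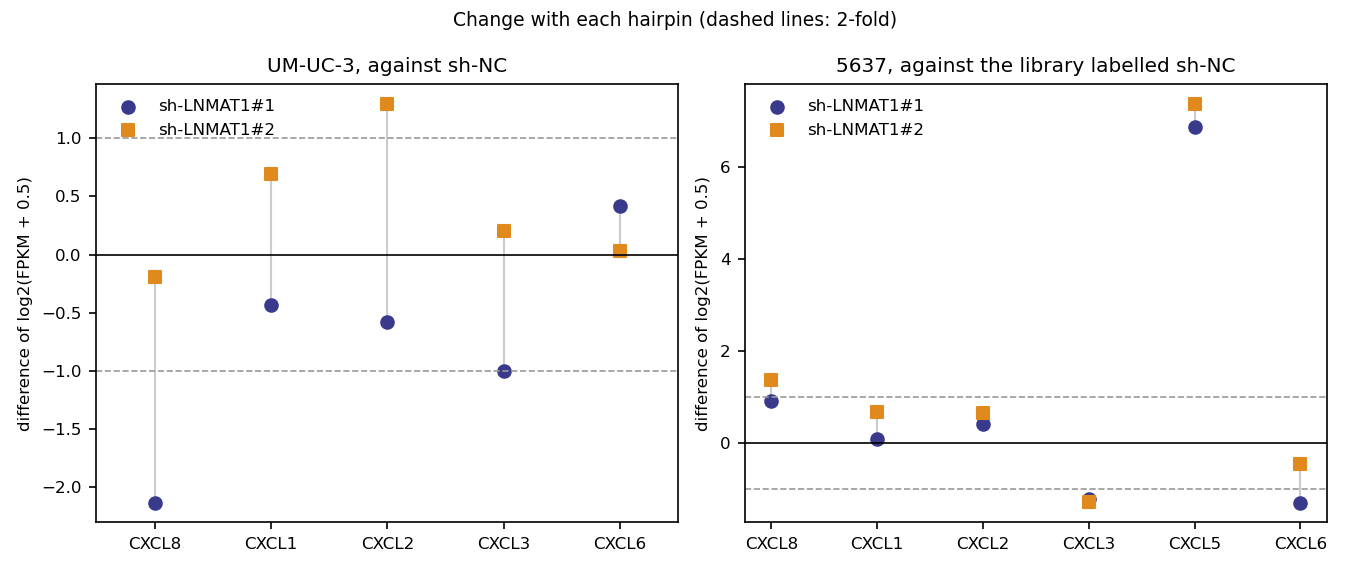
Difference of log2(FPKM + 0.5) from the sh-NC library of the same label (y axis) for each chemokine kept (x axis), with circles for sh-LNMAT1#1, squares for sh-LNMAT1#2, dashed lines at 2-fold and a separate y scale for each line. In UM-UC-3 the circles lie below the squares for all but CXCL6, and in 5637 CXCL5 stands at 6.88 and 7.37.

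Pooled over both lines with the line as a covariate (limma, Benjamini-Hochberg adjustment over 12717 genes), 0 members and 0% of all genes passed an adjusted p of 0.05, while 811 genes (6.38%) had an unadjusted p under 0.05. CXCL5 came to 3.55 (SE 1.49, adjusted p = 0.569 by limma). Without the library labelled 5637 sh-NC, the line covariate takes up both 5637 libraries, so the knockdown value comes from UM-UC-3 alone and is not pooled. CXCL5 then came to -0.02, from libraries of at most 3 fragments. CXCL3 came to -0.83 (SE 0.40, adjusted p = 0.569 by limma) and to -0.40 without that library. CXCL8 came to -0.01, with a 95% interval of -1.78 to 1.76, and to -1.16 without that library. Nothing in the labels says that the libraries came from separate cultures, so these p-values measure only the spread between the libraries. Tested as an interaction of line and knockdown, CXCL5 came to 7.14 (SE 0.44, adjusted p = 0.0029 by limma). In that direction 9.99% of genes passed. CXCL5 entered this test through the 5637 sh-LNMAT1 libraries alone and had at most 3 fragments in UM-UC-3. The value therefore restates its change in 5637 as labelled. The spread in this test comes from the hairpins alone, as each line has 1 sh-NC library. Without the library labelled 5637 sh-NC this contrast cannot be formed.

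Without that library, the 2 5637 sh-LNMAT1 libraries could be set against the 3 UM-UC-3 libraries. CXCL5 averaged 70.1 ± 16.8 FPKM (SD, n = 2) in 5637 and 0.0278 ± 0.0260 FPKM (SD, n = 3) in UM-UC-3. The difference was 7.04 on the log2 scale (SE 0.21, adjusted p = 9.8e-06 by limma), and 21.3% of 12748 genes passed in that direction. The lines did not overlap, as in 32.2% of genes in that direction. CXCL5 passed the filter on low values through the 5637 libraries alone. CXCL3 was lower in 5637, 5.61 ± 0.167 FPKM (SD, n = 2) against 18.7 ± 7.35 FPKM (SD, n = 3), by -1.56 (SE 0.37, adjusted p = 0.0157 by limma), where 21.6% of genes passed. That call is lost without 5637 sh-LNMAT1#1 or 5637 sh-LNMAT1#2 (adjusted p = 0.119 and 0.121 by limma). Neither call holds with the library labelled 5637 sh-NC counted as 5637, where CXCL5 came to 4.67 and CXCL3 to -1.15, with knockdown as a covariate (adjusted p = 0.217 for each by limma) or without one (adjusted p = 0.335 for each by limma).

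The other 4 chemokines did not pass. CXCL6 came to -0.87 (SE 0.29, adjusted p = 0.0532 by limma), with no overlap between the lines, as in 33.8% of genes in that direction. CXCL1 came to 0.33 with a 95% interval of -0.54 to 1.20, CXCL2 to -0.14 with an interval of -1.39 to 1.11, and CXCL8 to 0.02 with an interval of -1.51 to 1.54. These intervals leave room for differences of over 2-fold. For CXCL8 1 library decided the value, since without UM-UC-3 sh-LNMAT1#1 the gene was lower in 5637 by -0.66 (adjusted p = 0.0386 by limma).

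**Figure D4:**
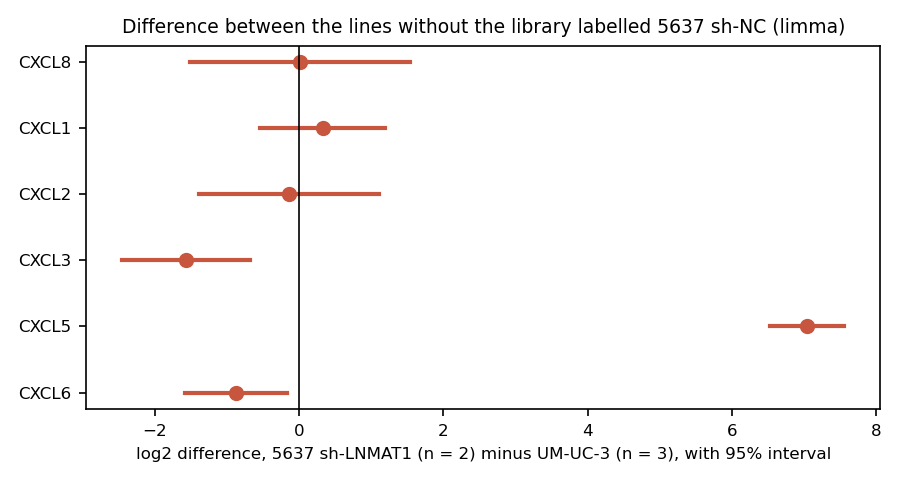
Log2 difference of each chemokine between the 2 5637 sh-LNMAT1 and the 3 UM-UC-3 libraries (x axis, points) with its 95% interval from limma (bars), the library labelled 5637 sh-NC left out. CXCL5 at 7.04, CXCL3 at -1.56 and CXCL6 at -0.87 have intervals, not adjusted for the number of genes, clear of 0, and the intervals of CXCL8, CXCL1 and CXCL2 span 0.

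Among the neighbours of the members, PF4V1 was listed at 0 in every library and PF4 and PPBP were at most 0.188 FPKM, although they lie between CXCL6 and CXCL5. Of 13 genes within or beside the cluster, PF4V1, PF4 and PPBP among them, 3 could be tested between the lines. Of these 3, 1 was higher and 1 lower in 5637 (all genes 21.3% and 21.6%), each kept through the libraries where it is high alone. EREG, which encodes the growth factor epiregulin, was 26.1 to 51.8 FPKM in all libraries. AREG, which encodes amphiregulin, was 60.7 and 56.7 FPKM in the 5637 sh-LNMAT1 libraries and at most 0.856 FPKM elsewhere. MTHFD2L, a mitochondrial folate enzyme gene next to CXCL2, was 0.542 and 0.594 FPKM there and 1.18 to 2.05 FPKM elsewhere. RASSF6, on the other side of CXCL8, was 1.56 and 1.91 FPKM there and at most 0.00978 FPKM elsewhere.

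**Figure D5:**
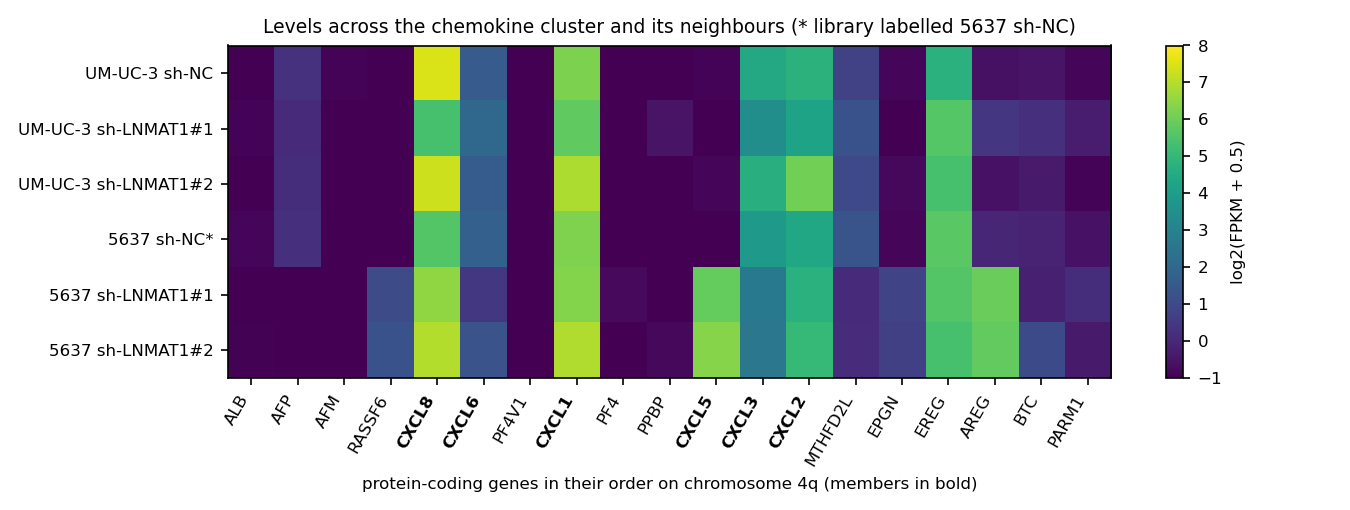
Level as log2(FPKM + 0.5) (colour) of protein-coding genes in their order along chromosome 4 (x axis, members in bold) in the 6 libraries (y axis). CXCL5 and AREG are bright only in the 5637 sh-LNMAT1 libraries, CXCL8 and CXCL1 are bright in all 6, and PF4V1 between them is at 0.

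Of the 11 other CXC ligands, 9 were under 1 FPKM in every library, and the 2 that could be tested between the lines, CXCL16 and CXCL10, were both higher in 5637 (all genes 21.3%), though CXCL10 was kept through the 5637 libraries alone. CXCL16, a membrane-bound ligand of CXCR6, was 7.15 and 12.6 FPKM in the 5637 sh-LNMAT1 libraries and 1.11 to 2.52 FPKM elsewhere. CXCL10, an interferon-induced attractant of T cells, was 3.64 and 2.02 FPKM there and at most 0.667 FPKM elsewhere. The receptors of the 6 members were close to absent, with CXCR1 listed at 0 in all libraries and CXCR2 at most 0.0404 FPKM. ACKR3, an atypical receptor that scavenges other CXC ligands, was the 1 receptor of 8 above 1 FPKM in any library, at 13.2 and 38.9 FPKM in the 5637 sh-LNMAT1 libraries and at most 0.446 FPKM elsewhere.

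Of 20 cytokines and receptors known to act upstream of these chemokines, 12 were tested between the lines, 8 of them higher in 5637 and 0 lower (all genes 21.3% and 21.6%). Of the 12, 4 were under 1 FPKM throughout UM-UC-3, and only 6 reached a mean of 1 FPKM there. The rest were kept through the 5637 libraries alone, among them IL1A, IL1B, IL1R1, TLR2 and IL17RC of the 8 higher genes. IL17RA, IL22RA1 and MYD88 were the higher genes that reached that mean in UM-UC-3. IL1A, which encodes interleukin-1α, was 257 and 304 FPKM in the 5637 sh-LNMAT1 libraries and at most 0.444 FPKM elsewhere. IL1B was 94.8 and 118 FPKM there and at most 0.470 FPKM elsewhere. TLR2, a receptor for bacterial lipoproteins, was 3.55 and 4.44 FPKM there and listed at 0 in the other 4 libraries. OSMR, the oncostatin M receptor gene, was 21.1 to 60.6 FPKM in all libraries. In UM-UC-3 0 of the 6 kept were 2-fold higher or lower with both hairpins.

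Of 22 genes of the transcription factors that act on these promoters and of their inhibitors, 2 were higher and 7 lower among 20 tested between the lines (all genes 21.3% and 21.6%; median -0.53, against -0.04 over all genes). CEBPD, a C/EBP factor gene, was 42.7 and 45.6 FPKM in the 5637 sh-LNMAT1 libraries and at most 1.88 FPKM elsewhere. TNFAIP3, an NF-κB target that restrains the pathway, was 35.3 and 36.2 FPKM there and at most 8.89 FPKM elsewhere. JUN, an AP-1 subunit gene, was 50.5 and 43.0 FPKM there and 239 to 592 FPKM elsewhere, and FOSL1, another, was 20.8 and 23.5 FPKM there and 52.6 to 124 FPKM elsewhere.

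Within UM-UC-3, 5 of 19 transcription genes kept were at least 2-fold lower with sh-LNMAT1#1 (all genes 5.31%) and 2 at least 2-fold higher with sh-LNMAT1#2 (all genes 2.10%). None passed 2-fold with both hairpins, while a pseudocount of 0.1 or 75th-percentile scaling gave 1 higher and 1 lower. The NF-κB genes among them, named after their values were seen save TNFAIP3, did not share 1 order. TNFAIP3 was 4.22 FPKM under sh-NC, 1.59 under sh-LNMAT1#1 and 8.89 under sh-LNMAT1#2, and NFKBIA, an NF-κB inhibitor gene, was 28.0, 11.9 and 46.6 FPKM. This order, lowest with sh-LNMAT1#1 and highest with sh-LNMAT1#2, was also that of CXCL1, CXCL2 and CXCL3. RELB, IKBKB, CHUK and IKBKG had the same order, each less than 2-fold from sh-NC with either hairpin. NFKB1, NFKB2 and NFKBIE were likewise lowest with sh-LNMAT1#1, at 4.65, 19.6 and 2.68 FPKM, but highest with sh-NC, at 12.9, 55.0 and 10.4 FPKM, the order of CXCL8. NFKBIB and NFKBIZ were lowest with sh-NC, at 11.3 and 3.03 FPKM, and highest with sh-LNMAT1#2, at 28.1 and 7.34 FPKM. RELA was highest with sh-NC, at 7.31 FPKM, and lowest with sh-LNMAT1#2, at 5.10 FPKM. Among all genes kept in UM-UC-3, 35.4% moved in opposite directions with the 2 hairpins.

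Of 10 genes whose products govern the decay of such mRNAs, 4 were higher and 1 lower in 5637 (all genes 21.3% and 21.6%). ZC3H12A, the gene of a nuclease that cuts inflammatory mRNAs, was 55.1 and 77.7 FPKM in the 5637 sh-LNMAT1 libraries and 2.14 to 3.81 FPKM elsewhere. MAPKAPK2, the gene of a kinase that stabilises them, was 23.3 and 24.9 FPKM there and 6.99 to 10.6 FPKM elsewhere. ZFP36, which encodes tristetraprolin, a protein that speeds decay, was 2.74 and 3.15 FPKM there and 3.05 to 8.86 FPKM elsewhere. ZFP36 overlapped between the lines and is not the 1 lower gene counted above (adjusted p = 0.187 by limma).

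Of 10 genes that act beside the chemokines on neutrophils, 9 were tested between the lines, 6 of them higher and 1 lower in 5637 (all genes 21.3% and 21.6%). Of the 9, 5 were under 1 FPKM throughout UM-UC-3 and so were kept through the 5637 libraries alone, and 1 of the 6 higher genes was not among them. The 1 lower gene was under 1 FPKM in both 5637 sh-LNMAT1 libraries and was kept through UM-UC-3 alone. S100A9, a calcium-binding alarmin, was 3032 and 2819 FPKM in the 5637 sh-LNMAT1 libraries and at most 1.00 FPKM elsewhere, and its partner S100A8 was 27.1 and 39.2 FPKM there and at most 0.0328 FPKM elsewhere. LCN2, which encodes an iron-binding antibacterial protein, was 583 and 617 FPKM there and at most 0.202 FPKM elsewhere. ICAM1, an adhesion molecule for neutrophils, was 29 and 21.1 FPKM there and at most 0.0714 FPKM elsewhere. ANXA1, which encodes annexin A1, was 192 and 200.3 FPKM there and 78.5 to 126 FPKM elsewhere. UM-UC-3 kept 4 of these genes, and 2 of them lay at least 2-fold below sh-NC with either hairpin, against 0.358% of all genes, both named after their values were seen. CSF2, which encodes the growth factor GM-CSF, was 9.72 FPKM under sh-NC, 0.399 under sh-LNMAT1#1 and 3.60 under sh-LNMAT1#2. MMP9, which encodes a gelatinase, was 12.9, 2.08 and 2.80 FPKM in that order.

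Of 11 leukocyte markers, 10 were under 1 FPKM and 3 at 0 in every library. Their sum was 16.3, 29.6 and 13.8 FPKM in UM-UC-3, 31.3 FPKM under the label 5637 sh-NC and 1.52 and 1.24 FPKM in the 5637 sh-LNMAT1 libraries. CD68, a lysosomal protein gene not limited to leukocytes, made most of the first 4 sums, up to 31.0 FPKM, and 0.749 and 0.826 FPKM of the last 2. Of 12 epithelial markers, 10 were kept and higher in the 5637 sh-LNMAT1 libraries (all genes 21.3%). Of these, 9 were under 1 FPKM throughout UM-UC-3 and were kept through the 5637 libraries alone. The exception, KRT18, a keratin gene of simple epithelium, was 50.9 and 49.0 FPKM there and 15.9 to 25.2 FPKM elsewhere. Of 8 mesenchymal markers, 4 were lower and 2 higher in 5637 among 6 tested (all genes 21.6% and 21.3%). Of the 4 lower, ZEB1 and SPARC were under 1 FPKM in both 5637 sh-LNMAT1 libraries and were kept through UM-UC-3 alone. The sum of the 8 was 126 and 121 FPKM in the 5637 sh-LNMAT1 libraries and 165 to 400.4 FPKM elsewhere. VIM, which encodes vimentin, was 3.85 and 4.14 FPKM there and 103 to 332 FPKM elsewhere, while FN1, the fibronectin gene, was 110 and 102 FPKM there and at most 2.27 FPKM elsewhere. These marker levels separate the same libraries as CXCL5, and their part in the chemokine differences was not tested.

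The genes whose profile over the 6 libraries lay nearest to each member were found among 11548 genes by the root-mean-square difference of centred log2 values. For CXCL5 they were KRT17 (0.095), KRT7 (0.126) and JUP (0.133), 2 keratin genes and the junction gene of plakoglobin. For CXCL8 they were EHD1 (0.189), NCAPD2 (0.198) and KIF20A (0.250). For CXCL1 they were COQ2, TIMM13 and ATP5J2, within 0.141, and for CXCL6 they were BHLHE41, CHORDC1 and TTL, within 0.125. For CXCL3 they were RSPRY1, FRMD6-AS1 and MDN1, within 0.129, and for CXCL2 they were RHOQP1, CLN6 and GPR39, within 0.224. No member was among the 3 nearest of another, and the nearest pair was CXCL2 and CXCL1 at 0.363. CXCL1 was at rank 81 from CXCL2, and CXCL2 at rank 1210 from CXCL1. Closeness over 6 libraries is a description and has no test.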

How the data were processed

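The deposited table held FPKM for 50869 rows, of which 1 without values was left out. Per the submitters' processing notes, reads were aligned with HISAT2 to hg38. The counting program and annotation are not given in the sources used here. FPKM was used as deposited, so no count model was run. Depth came from single-exon genes, where at least 99.92% of values were whole fragments (tolerance 0.05). Differences were taken on log2(FPKM + 0.5) for genes whose mean reached 1 FPKM. Within a line no test was run, and otherwise limma 3.58.1 was used (R 4.3.3, eBayes with a trend). The main fits had 3 residual degrees of freedom (interaction 2), and fits to fewer libraries had fewer. The scripts were tested on simulated data. Python 3.11.15 wrote the tables. Members and gene lists were chosen with earlier results of these data known. Named were all members, up to 4 genes per list by level, the 3 nearest profiles and LINC01296. Also named were up to 4 genes per list changed 2-fold with both hairpins in a line. Those were ranked by the smaller change of the 2 hairpins, largest first. Not every gene the rule allows is printed. Promoters were from RefSeq (GRCh38.p14) and gene positions from the deposited table and GENCODE release 29. Alternatives were a pseudocount of 0.1 or 1, a filter of 5 FPKM or none, 75th-percentile scaling, 1.5-fold and 4-fold limits, limma without a trend, no line covariate, a hairpin block, leaving out each library and, added after seeing the data, a fit between lines with all 6 libraries and no covariate.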

Additional observations from a re-analysis of the deposited data

Results flagged for a closer look

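CXCL5 was singled out because its change with the hairpins in 5637 as labelled exceeded that in UM-UC-3. The gap was 7.14 on the log2 scale (SE 0.44, adjusted p = 0.0029 in limma's interaction test). In that direction 9.99% of genes passed. The gene was at most 0.0515 FPKM in UM-UC-3 and entered the test through the 5637 sh-LNMAT1 libraries alone. The value uses the library labelled 5637 sh-NC, in which CXCL5 was listed at 0 and EPCAM was 0.0104 FPKM. By root-mean-square log2 difference, that library lay 0.30 from UM-UC-3 sh-LNMAT1#1 and 1.48 from each 5637 sh-LNMAT1 library. With it left out, CXCL5 in the 5637 sh-LNMAT1 libraries stood 7.04 above the UM-UC-3 libraries on the log2 scale. The part of that library in the difference was not tested.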

How the results depend on the processing

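Of 94 counts of members under other settings 83 stayed within 1.5 times, and of 195 single-member limma results 177 kept their direction and side of the threshold, 10 turned, 6 lost and 2 gained the call. In 5637 as labelled, a limit of 1.5-fold gave 2 members higher, and a limit of 4-fold 0 lower. The share of all genes was taken at the main settings only, 18.5% higher and 12.3% lower with both hairpins in 5637. Counts of members at other settings, here and below, therefore cannot be set against a general share. A pseudocount of 0.1 gave CXCL5 changes of 9.19 and 9.68 there, and a pseudocount of 1 gave 5.89 and 6.37. Leaving out each library, values of the pooled fit ran from -1.16 to 1.14 for CXCL8, -0.89 to 0.22 for CXCL6 and -0.02 to 7.12 for CXCL5. These ends come from leaving out an sh-NC library, where the fit takes the knockdown from the other line alone and is not pooled. The 7.12 of CXCL5, without UM-UC-3 sh-NC, sets the 5637 hairpins against the library labelled 5637 sh-NC. CXCL5 was kept there through the 5637 sh-LNMAT1 libraries alone. Between the lines, leaving out each library gave 0 to 2 members lower, 0 without either 5637 library and 2 without UM-UC-3 sh-LNMAT1#1, with values from -0.66 to 0.40 for CXCL8 and -0.55 to 0.39 for CXCL2. Scaling to the 75th percentile gave 2 members lower, adding CXCL6 at -0.96 (adjusted p = 0.0444 by limma), and CXCL8 at -0.09. With the library labelled 5637 sh-NC included and knockdown as a covariate, 0 members were higher and 0 lower, with CXCL8 at -0.36, CXCL5 at 4.67 and CXCL3 at -1.15, and with it included and no covariate, a setting chosen after seeing the data, the counts and values were the same. The cause of these shifts was not tested. Fitted to the 4 sh-LNMAT1 libraries with the hairpin number as a block, which names a construct and not a shared culture, the comparison called 1 member higher and 1 lower, CXCL5 at 7.05 and CXCL3 at -1.43 (adjusted p = 4.7e-06 and 0.011 by limma). That fit has only 1 residual degree of freedom, and CXCL5 was kept in it through the 5637 libraries alone. With 1 library per construct, fragments limit only CXCL6 and the near-zero CXCL5 values.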
